A study of Mus musculus with 9 samples.

Results

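The genes described here are those whose transcripts were highest at day 14 in 6620c1, a mouse pancreatic tumor cell line, in a culture condition that the study names nutrient and oxygen deprivation. A gene was taken when its day 14 mean was at least 10 TPM (a share of all transcripts in the library, with transcript length taken into account), when the day 14 mean plus 1 was at least 2 times the mean plus 1 of day 0 and of day 2, and when its lowest day 14 value lay above all 6 earlier values. Rows of microRNAs, other small RNAs, histones, keratins, cadherins, integrins, laminins, collagens and a few further families and genes were left out by name. The rule picked 134 of 24493 rows, 30 were left out by name, and 104 genes remained. All 104 passed the expression filter of at least 1 TPM in at least 3 samples, as did 12693 rows in all. The rule used the values of all 3 days. The levels at day 14 and the ratios to earlier days are therefore given as a description without a test. The difference between day 0 and day 2 is not part of the rule and was tested gene by gene. The day 0 and day 2 values nevertheless took part in the choice, which limits how far they can differ, so counts of such calls over the 104 genes are descriptions too.

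The study had 3 groups of 3 samples, collected at day 0, day 2 and day 14. For all of them, day 0 included, the labels list the same medium without further treatment: DMEM in which glucose is reduced to 2.5 mM, serum to 0.5% and the amino acids to 20% of the usual level. They give no oxygen level. The columns of the deposited table all carry the prefix WT, which the labels do not explain. All samples are of the same line, and no sample analysed here was kept in full medium for as long, so the effect of the medium cannot be told apart from that of time. The labels do not say whether the 3 samples of a day were separate cultures, so the p-values rest on a spread that may be technical only. TPM are shares of a fixed total and do not tell how deeply a library was sequenced. Fewer cells of a kind cannot be told apart from less of a transcript per cell.

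The 104 genes have mixed roles. Glutathione transferases and UDP-glucuronosyltransferases conjugate reactive or foreign compounds so that they can be exported, after cytochromes and carboxylesterases have oxidised or cleaved them. Retinol enters cells through the receptor encoded by Stra6 and is carried inside by small retinol-binding proteins, and secreted mucins cover the apical surface of mucosal cells. Grouped by role after their values were seen, 16 of the genes code for ligands and receptors, 13 for enzymes of lipid and small molecule metabolism, 10 for detoxification enzymes, 10 for proteins of the epithelial surface and its secretions, 10 for regulators of transcription and chromatin, 9 for transporters and channels, 8 for intracellular signalling proteins, 8 for cytoskeletal proteins, 7 for proteases, inhibitors and other secreted proteins, 5 for retinoid and thyroid hormone handling and 5 for stress and cell cycle proteins. The other 3 are Tapbp, which codes for tapasin of the MHC class I loading complex, Klra4, a lectin-like receptor gene of the Ly49 family, and Tmie, whose product serves mechanotransduction in hair cells.

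The libraries carried transcripts of epithelial cells. The summed TPM of 10 epithelial markers (Epcam, Cdh1, keratins and others) lay between 10842 and 11498 at day 0, between 5497 and 7621 at day 2 and between 6889.7 and 8673 at day 14. Krt8, Krt18, Krt19 and Krt7 carried this sum, and each had its highest mean at day 0. The other 6 markers went the other way, with the highest mean at day 14. Cdh1, which codes for E-cadherin, had means of 240, 224 and 399 TPM at day 0, 2 and 14, and Epcam, one of the genes left out by name, 2.23, 0.686 and 14.1 TPM. Markers of other cell types were low, and none is among the 104 genes. Some of their sums were highest at day 14. The 10 endothelial markers summed to 0.347 to 0.578 TPM at day 0, 0.520 to 0.717 TPM at day 2 and 1.95 to 2.77 TPM at day 14. The 9 acinar markers in the table, with Cela2a listed at 0 throughout, summed to 1.40 to 1.53, 1.20 to 2.85 and 4.63 to 6.56 TPM. The 10 islet markers, with Ins1, Gcg, Sst and Ppy at 0 in all 9 libraries, reached at most 0.238, 0.0803 and 1.93 TPM. Fibroblast sums (10 markers) were 0.205 to 0.333 TPM at day 0, 1.03 to 3.12 TPM at day 2 and 1.14 to 2.30 TPM at day 14. The 9 lymphocyte markers, with Cd3g and Cd2 at 0 throughout, summed to 0.645 to 1.22, 2.52 to 5.17 and 3.48 to 4.60 TPM. The 10 macrophage markers summed to at most 33.2, 36.8 and 26.0 TPM, a sum carried by Mrc1 (means of 26.6, 27.99 and 10.4 TPM). In that list 7 markers had their highest mean at day 14, among them Csf1r (0.215, 0.559 and 3.97 TPM) and Cd68 (2.20, 3.70 and 6.32 TPM). The highest mean was also that of day 14 for 9 of 10 endothelial, 7 of 9 acinar, 5 of 10 islet, 6 of 9 lymphocyte, 8 of 10 fibroblast and 8 of 10 smooth muscle markers. The sums of the last list were 26.8 to 30.1 TPM at day 0 and 29.9 to 34.6 TPM at day 2. At day 14 they were 18.1, 23.5 and 35.8 TPM in replicates 1, 2 and 3. Smtn carried these sums (means of 24.6, 31.1 and 19.7 TPM), with its lowest mean at day 14. The part of these cell types in the day 14 values was not tested. Rows with at least 1 TPM numbered 11569 to 11633 at day 0, 12033 to 12085 at day 2 and 12595 to 12717 at day 14. Libraries of the same day correlated at r between 0.947 and 0.979 over the tested rows, which are not independent replicates. The row of Mir6236 took between 8.27% and 22.5% of all TPM in a library, and the values of every other row are shares of what it left.

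Together the 104 genes took 1832, 1746 and 1890.0 TPM in replicates 1, 2 and 3 at day 0, 2288, 1893 and 2129.6 TPM at day 2, and 8228, 6628 and 5401 TPM at day 14. The 3 genes of highest level, Nupr1, Aqp1 and Gsta4, did not make up this sum: without them it was 1466 to 1582 TPM at day 0 and 3789 to 6009.7 TPM at day 14. Day 14 means ran from 10.04 to 823 TPM, with 15 genes at 100 TPM or more and 40 under 20 TPM. The ratio used here and below is (day 14 mean + 1) over (mean + 1) of the earlier day with the higher mean, which was day 0 for 45 genes and day 2 for 59. It ran from 2.01 to 18.9 with a median of 2.51, and 28 genes had a ratio of at least 3 and 12 of at least 4. The heat map of all genes by library shows the day 14 columns raised in every role, since the rule chose them so, and both higher and lower rows at day 2.

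**Figure D1:**
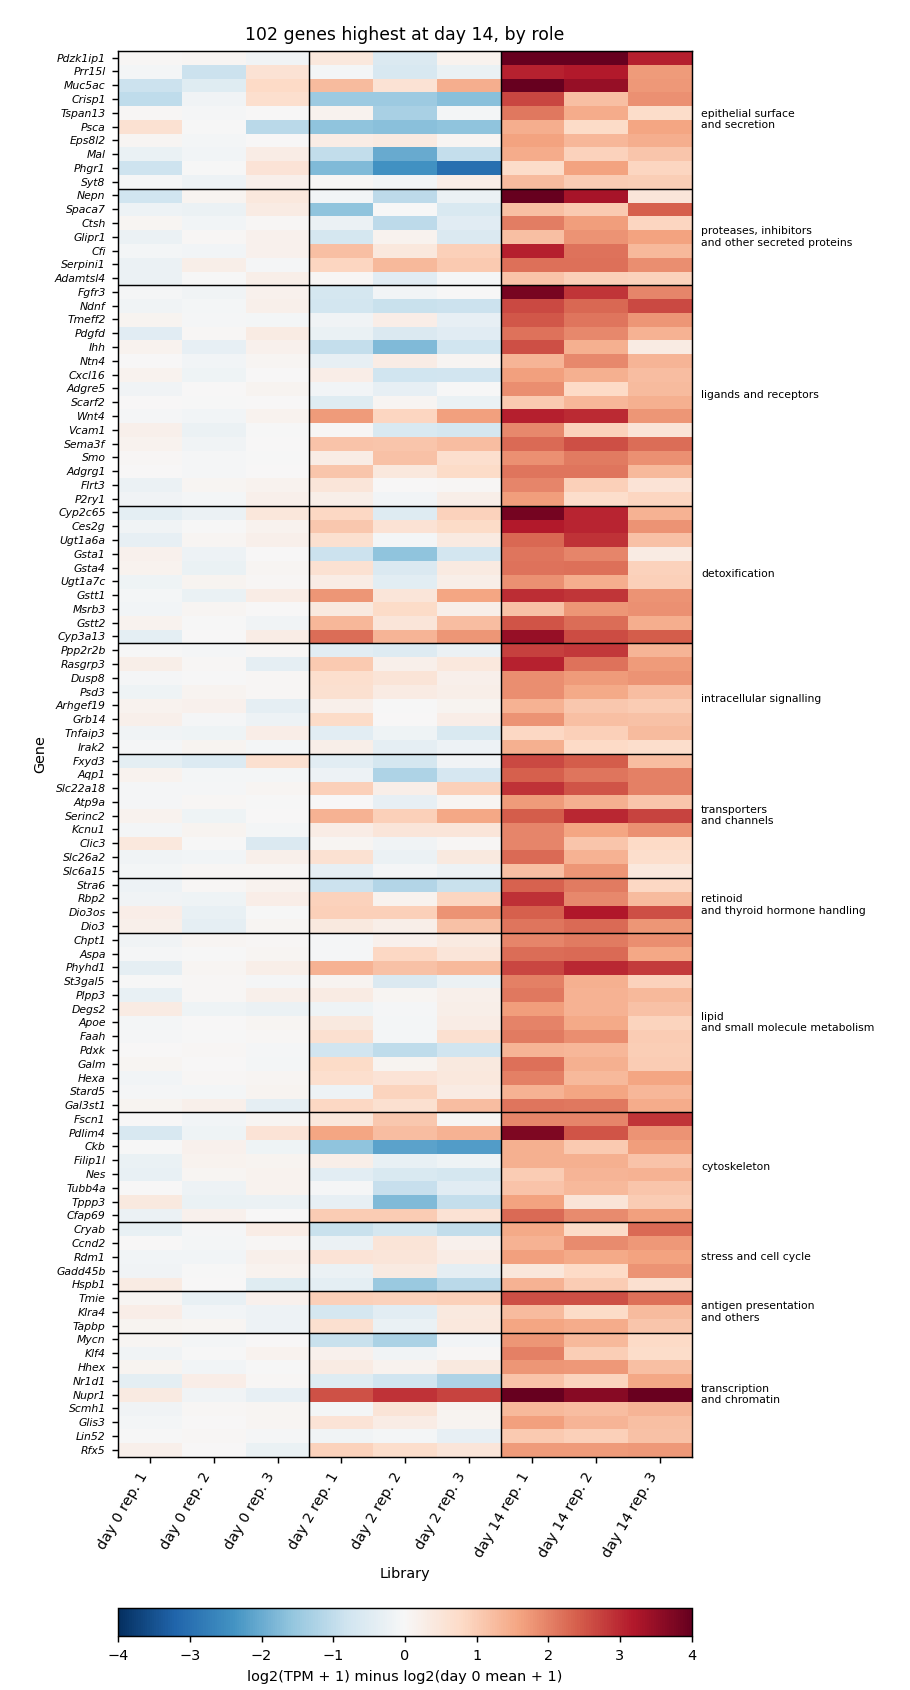
Each row is 1 of 102 of the 104 genes and each column 1 library, grouped by day, and colour gives log2(TPM + 1) minus log2(day 0 mean + 1), drawn from -4 to 4 with larger differences at the end colours. Day 2 columns hold both red rows such as Nupr1 and Cyp3a13 and blue rows such as Ckb, Phgr1 and Psca.

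The largest ratio belonged to Pdzk1ip1, which codes for a small membrane protein that binds the scaffold PDZK1. It read 5.72, 5.9 and 4.97 TPM at day 0, 7.82, 3.35 and 6.12 at day 2 and 152, 174 and 55.4 at day 14, in replicates 1, 2 and 3, so that the lowest day 14 library stood far above every earlier value. Fgfr3, a fibroblast growth factor receptor, read 2.0, 1.81 and 2.44 TPM at day 0, 0.912, 1.87 and 2.12 at day 2 and 42.1, 21.6 and 11.1 at day 14, and its day 14 libraries differed among themselves by almost as much as the lowest of them differed from the earlier days. Nepn, which codes for the secreted leucine-rich protein nephrocan, read 0.650, 2.07 and 2.81 TPM at day 0, 1.63, 0.364 and 1.44 at day 2 and 47.4, 27.1 and 2.96 at day 14. Its day 14 replicate 3 was barely above the highest day 0 library, so the ratio of 9.43 rested on the other day 14 libraries. Ndnf, a secreted factor first described in neurons, read 2.09, 2.22 and 2.87 TPM at day 0, 1.02, 0.824 and 0.857 at day 2 and 20.3, 15.6 and 20.1 at day 14, with close agreement at each day. Ppp2r2b, a regulatory subunit of the phosphatase PP2A, read 1.37, 1.31 and 1.43 TPM at day 0, 0.765, 0.666 and 1.02 at day 2 and 14.8, 16 and 5.07 at day 14. Tmeff2, which codes for a membrane protein with follistatin-like domains, read 2.89, 2.54 and 2.46 TPM at day 0, 2.32, 3.36 and 1.9 at day 2 and 19.4, 15.1 and 11.5 at day 14. For both, all day 14 libraries lay clear of the earlier ones.

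**Figure D2:**
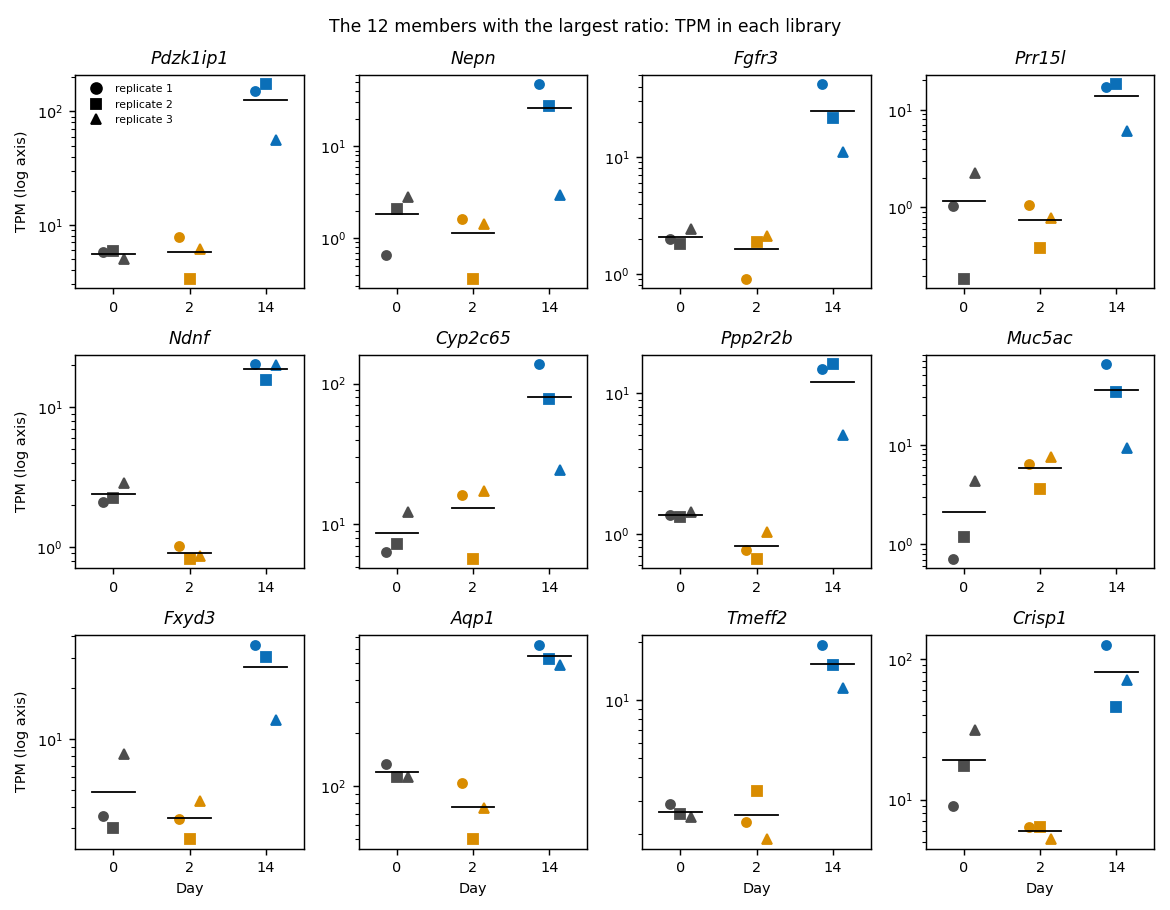
TPM on a log axis at day 0, 2 and 14 for the 12 genes with the largest ratio, with a marker for each replicate and a bar at the mean of the 3. Every day 14 point lies above all earlier points of its gene, as the rule requires, and replicate 3 (triangle) is the lowest day 14 point for 10 of the 12 genes.

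Upstream sequence was compared through the RefSeq windows (GRCm38.p6) that reach 250 bases upstream of an annotated start. Such windows were found for 79 of the 104 genes, 101 windows in all, and were set beside 32851 windows of all genes. On either strand 12 short motifs were searched. The box bound by KLF and SP factors, CCACCC, stood in 42.6% of the windows of these genes (38 genes) and in 28.1% of all windows. The windows of these genes also held more G and C, with a median of 58.8% against 52.4% over all windows, and the part of base composition in the motif share was not tested. The GLI core CCACCCA, which contains the KLF box, stood in 10.9% against 8.11%. The shares of the other 10 motifs differed by fewer percentage points than that of the KLF box: AP-1 (TGANTCA) 7.92% against 6.75%, the antioxidant response element (TGACNNNGC) 7.92% against 10.2%, a heat shock element core (GAANNTTC) 3.96% against 6.69%, the E-box CACGTG 6.93% against 6.02%, the hypoxia response core ACGTG 10.9% against 16.6%, the ROR core AGGTCA 11.9% against 14.0%, the FOXA core TGTTTAC 1.98% against 3.17%, the TEAD core GGAATG 14.9% against 12.6%, TATAAA 13.9% against 12.4% and CCAAT 27.7% against 33.8%. A match describes letters and not a bound site. The windows below show the KLF box in capitals for 4 genes of large ratio, Pdzk1ip1 (chr4:115088458-115088707, plus strand), Fxyd3 (chr7:31076698-31076947, minus strand), Aqp1 (chr6:55336049-55336298, plus strand) and Ugt1a6a (chr1:88134559-88134808, plus strand), and the heat shock element core in capitals for the heat shock gene Hspb1 (chr5:135887669-135887918, plus strand). Each is written 5′ to 3′ in the direction of the gene.
Pdzk1ip1: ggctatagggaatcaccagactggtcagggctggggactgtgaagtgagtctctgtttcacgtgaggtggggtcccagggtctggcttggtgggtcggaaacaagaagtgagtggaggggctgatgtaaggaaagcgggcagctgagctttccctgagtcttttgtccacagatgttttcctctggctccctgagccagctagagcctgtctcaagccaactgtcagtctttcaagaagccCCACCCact
Fxyd3: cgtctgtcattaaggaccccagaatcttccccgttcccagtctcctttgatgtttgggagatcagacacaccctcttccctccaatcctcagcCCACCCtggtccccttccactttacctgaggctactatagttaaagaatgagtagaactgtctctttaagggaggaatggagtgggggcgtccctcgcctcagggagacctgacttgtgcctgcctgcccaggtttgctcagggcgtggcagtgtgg
Aqp1: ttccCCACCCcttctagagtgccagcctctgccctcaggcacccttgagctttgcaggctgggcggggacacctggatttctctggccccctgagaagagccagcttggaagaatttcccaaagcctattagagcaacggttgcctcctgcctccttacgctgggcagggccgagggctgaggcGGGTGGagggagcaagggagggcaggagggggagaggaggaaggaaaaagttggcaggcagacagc
Ugt1a6a: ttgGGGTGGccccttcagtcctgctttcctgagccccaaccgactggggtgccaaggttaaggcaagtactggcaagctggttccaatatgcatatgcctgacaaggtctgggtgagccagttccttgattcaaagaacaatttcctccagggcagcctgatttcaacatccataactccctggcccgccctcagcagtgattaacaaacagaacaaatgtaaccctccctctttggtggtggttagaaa
Hspb1: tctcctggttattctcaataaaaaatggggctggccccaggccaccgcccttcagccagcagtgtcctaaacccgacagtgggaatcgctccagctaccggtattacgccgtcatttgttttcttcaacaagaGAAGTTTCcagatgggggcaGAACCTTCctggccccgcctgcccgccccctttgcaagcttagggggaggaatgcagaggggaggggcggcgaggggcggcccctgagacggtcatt

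Whether these genes had already moved at day 2 was asked with limma on log2(TPM + 1), fitted over all 12693 rows and adjusted over them by Benjamini and Hochberg. At day 2 against day 0, 23 of the 104 genes rose (22.1%, where 27.1% of all tested rows rose) and 14 fell (13.5%, where 31.9% of all tested rows fell). The other 67 did not pass, which does not show that they stayed level. The median log2 fold change was 0.12 for these genes and -0.02 over all tested rows. Among the 97 genes with a mean of at least 1 TPM at day 0 and at day 2, 21 rose and 11 fell. Of the 23 that rose, 12 did so by at least 2-fold, and of the 14 that fell, 5 did. For neither limit was a share over all rows counted, so these counts describe the 104 genes alone. By the values alone, all 3 day 2 libraries lay above all 3 of day 0 for 32 genes (31.7% of all rows did so) and below for 20 (34.8% of all rows), while the ranges overlapped for 52. For the 23 genes that rose, day 14 was thus not the only time at which the transcript stood above day 0.

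The count of genes that fell depended on the libraries used. It was 9, 7 and 8 without day 0 replicate 1, 2 or 3 and 7 without day 2 replicate 3, against 14 with all libraries, while the count that rose stayed between 17 and 26. With the 4 other scalings and the 9 left-out libraries, 20 of the 37 calls were made every time. Among them were the rises of Nupr1, Cyp3a13, Phyhd1, Serinc2, Dio3os, Sema3f, Wnt4, Smo, Gal3st1, Serpini1, Cfap69, Rfx5 and Tmie and the falls of Phgr1, Ckb, Psca, Mal, Pdxk and Ndnf. Where a call below was not made in all 13 of these settings, the number in which it was made is given.

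**Figure D3:**
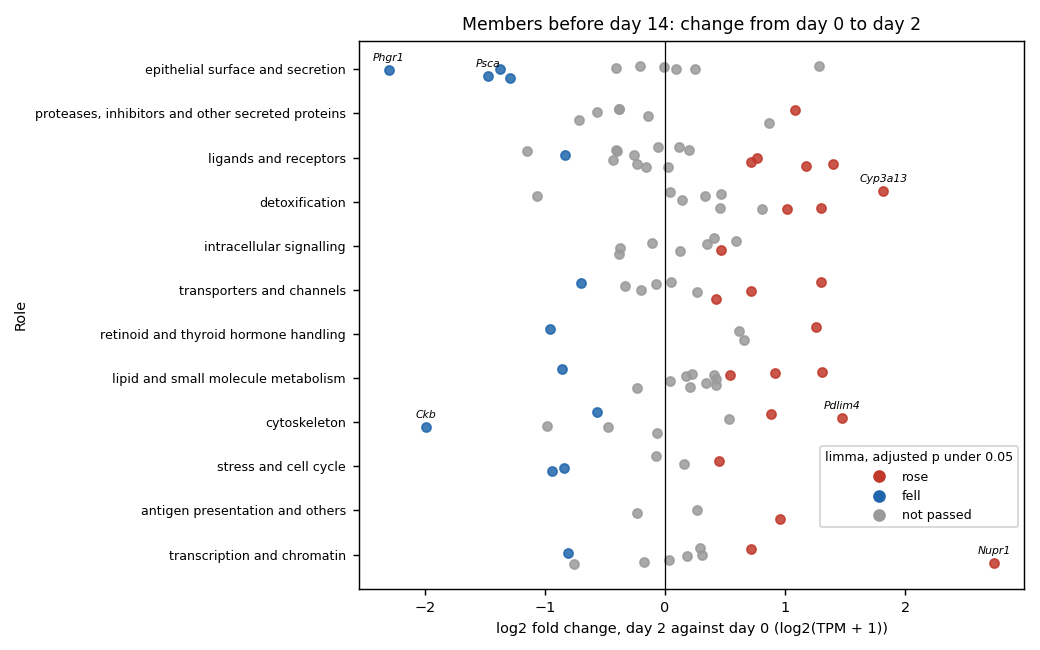
Log2 fold change at day 2 against day 0 (horizontal, on log2(TPM + 1)) for 102 of the 104 genes by role (vertical, spread at random within a role), coloured by the limma call at an adjusted p under 0.05. Detoxification genes that passed lie to the right of 0 and epithelial surface genes that passed lie to the left, a difference between roles that was not tested.

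Among the 10 detoxification genes, 3 rose at day 2 (27.1% of all tested rows rose), 0 fell (1 at an unadjusted p under 0.05 by limma) and 7 did not pass, with a median log2 fold change of 0.46. Cyp3a13, a cytochrome of the drug-oxidising 3A family, read 5.77, 7.93 and 9.94 TPM at day 0, 41.2, 21.8 and 29.1 at day 2 and 98.9, 52.7 and 46.5 at day 14. It rose at day 2 (log2 fold change 1.82, SE 0.32, adjusted p = 0.00104 by limma), and its day 14 values lay above that level again. The theta class glutathione transferases Gstt1 and Gstt2 are near neighbours on chromosome 10 with 1 gene between them in RefSeq order. Gstt1 read 5.13, 4.41 and 6.89 TPM at day 0, 21.1, 8.1 and 18.4 at day 2 and 49.3, 46.2 and 21.5 at day 14. At day 2 Gstt1 rose (log2 fold change 1.30, SE 0.39, adjusted p = 0.0166 by limma), called in 10 of 13 settings. Gstt2 read 2.74, 2.36 and 2.07 TPM at day 0, 7.5, 3.71 and 6.9 at day 2 and 18.5, 14.9 and 8.24 at day 14. At day 2 Gstt2 rose (log2 fold change 1.01, SE 0.30, adjusted p = 0.0162 by limma), called in 9 of 13 settings. Day 2 replicate 2 was the lowest of its day for each of these 3 genes. Gstt3, a theta class gene that did not meet the rule, had means of 5.34, 13.3 and 25.6 TPM at day 0, 2 and 14, and it too rose at day 2 (limma, adjusted p = 0.00450) and between day 2 and day 14 (limma, adjusted p = 0.0275).

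The alpha class transferases had another course. Gsta4, whose product conjugates lipid peroxidation aldehydes, read 159, 118 and 151 TPM at day 0, 218, 95.2 and 183 at day 2 and 651, 654 and 270.1 at day 14. Its neighbour Gsta1 read 74.1, 55.7 and 65.2 TPM at day 0, 35, 20.4 and 39.1 at day 2 and 292, 255 and 82 at day 14. For Gsta1 all day 2 values lay below all of day 0, a difference that did not pass (log2 fold change -1.06, SE 0.44, adjusted p = 0.0613 by limma). In both genes day 14 replicate 3 was the lowest of its day by more than 2-fold against each of the others. Gm3776, an alpha class relative of Gsta1 that the rule left out by name pattern, averaged 44.4 TPM at day 0, 12.3 TPM at day 2 and 94.5 TPM at day 14. It fell at day 2 by 1.85 on the log2 scale (limma, adjusted p = 0.00219). Transcripts of these close copies can share reads, so how the signal divides among them is uncertain.

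The phase I enzymes Cyp2c65, Ces2g and the glucuronosyltransferases did not pass at day 2. Cyp2c65, a cytochrome of the 2C family, read 6.4, 7.23 and 12.3 TPM at day 0, 16.2, 5.72 and 17.2 at day 2 and 137, 78.3 and 24.2 at day 14. Ces2g, a carboxylesterase, read 6.96, 7.66 and 8.72 TPM at day 0, 17.5, 12.1 and 13.8 at day 2 and 78.9, 71.8 and 29.6 at day 14. All its day 2 values lay above all of day 0, a difference that just missed the threshold (log2 fold change 0.81, adjusted p = 0.0552 by limma). In Cyp2c65 and Ces2g, day 14 replicate 3 was lowest and lay closest to the earlier days. Ugt1a7c read 58.3, 71 and 68.8 TPM at day 0, 81.7, 49.5 and 77.4 at day 2 and 239, 181 and 128 at day 14. Ugt1a6a read 1.91, 2.88 and 3.17 TPM at day 0, 4.69, 2.49 and 3.7 at day 2 and 17, 26 and 7.31 at day 14. These 2 transcripts overlap in the annotation and belong to a locus whose alternative first exons join shared last exons, so their separate levels are uncertain. Msrb3, a methionine sulfoxide reductase, read 5.46, 6.31 and 6.02 TPM at day 0, 8.07, 10.9 and 7.14 at day 2 and 14.7, 22.4 and 23.6 at day 14, and here day 14 replicate 1 was the lowest of its day. Of the 40 other tested genes on a list of xenobiotic and glutathione genes, 25 rose and 4 fell at day 14 against day 0 by limma (over all rows 36.2% rose and 18.8% fell), with a median of 0.99 against 0.22 over all rows. At day 14 against day 2, 14 rose and 3 fell (over all rows 27.4% and 3.79%), with a median of 0.36 against 0.25. The largest rise on that list outside the 104 was that of Ugt2b34, another glucuronosyltransferase gene, from 9.6 to 130.4 TPM at day 14, most of it present at day 2 (93.6 TPM). Its day 14 libraries read 208, 144 and 39.2 TPM, the last below every day 2 value (lowest 67.6). Day 14 against day 2 did not pass for Ugt2b34 (adjusted p = 0.787 by limma). Gpx1, a glutathione peroxidase, fell by 1.04 on the log2 scale at day 14 against day 0 (limma, adjusted p = 0.00206).

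In the retinoid and thyroid group, 2 genes fell at day 2, 1 rose and 2 did not pass (over all tested rows 31.9% fell and 27.1% rose). Stra6, the retinol uptake receptor, read 5.12, 6.24 and 6.68 TPM at day 0, 2.9, 2.14 and 2.81 at day 2 and 35, 28.8 and 11.5 at day 14, and its fall at day 2 (log2 fold change -0.96, SE 0.34, adjusted p = 0.0357 by limma) was called in 6 of 13 settings. Rbp2, a cellular retinol-binding protein gene, read 5.17, 5.09 and 7.33 TPM at day 0, 12.1, 6.61 and 11.3 at day 2 and 51.1, 24.8 and 15.6 at day 14 and did not pass at day 2 (log2 fold change 0.66, SE 0.38, adjusted p = 0.166 by limma). Rbp4, the plasma retinol carrier, was higher than Stra6 and Rbp2 in TPM at every day, at 158, 138 and 189 TPM, and passed in no comparison. Of 19 other tested genes of retinoid and steroid metabolism, 10 rose and 3 fell at day 14 against day 0 (all rows 36.2% and 18.8%). Against day 2, 5 rose and 2 fell (all rows 27.4% and 3.79%). The medians were 0.77 and 0.41 (all rows 0.22 and 0.25).

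Dio3, a deiodinase that inactivates thyroid hormone, and Dio3os, the non-coding gene beside it in the opposite orientation, were both in the set. Dio3 read 2.27, 1.2 and 1.96 TPM at day 0, 2.69, 2.3 and 5.27 at day 2 and 11.3, 12.4 and 8.54 at day 14. Dio3os read 2.17, 1.15 and 1.66 TPM at day 0, 4.16, 4.18 and 8.22 at day 2 and 12.9, 23.6 and 15 at day 14. At day 2 Dio3os rose (log2 fold change 1.26, SE 0.29, adjusted p = 0.00454 by limma). Whether the authors' quantification used strand is not given in the sources used here, so reads of this pair may not be fully separable.

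Of the 10 genes of the epithelial surface and its secretions, 4 fell at day 2, where 31.9% of all tested rows fell. By limma 0 rose, and also 0 at an unadjusted p under 0.05. Phgr1, named for a protein rich in proline, histidine and glycine, read 3.5, 6.9 and 10.6 TPM at day 0, 1.33, 0.491 and 0 at day 2 and 12.3, 23.2 and 13.5 at day 14. At day 2 Phgr1 fell (log2 fold change -2.30, SE 0.41, adjusted p = 0.00108 by limma). Psca, a GPI-anchored protein of the Ly6 family and a known surface marker of prostate and pancreatic tumors, read 6.74, 4.01 and 1.4 TPM at day 0, 0.641, 0.590 and 0.659 at day 2 and 13, 7.54 and 14 at day 14. At day 2 Psca fell (log2 fold change -1.48, SE 0.38, adjusted p = 0.00856 by limma). Mal, a membrane protein of apical sorting, read 22.5, 25.5 and 34.2 TPM at day 0, 13.3, 6.07 and 13.8 at day 2 and 77.7, 52.7 and 60.8 at day 14. At day 2 Mal fell (log2 fold change -1.29, SE 0.29, adjusted p = 0.00416 by limma). Crisp1, a secreted cysteine-rich protein, read 8.93, 17.3 and 31.2 TPM at day 0, 6.33, 6.33 and 5.26 at day 2 and 126, 45.5 and 71.3 at day 14. At day 2 Crisp1 fell (log2 fold change -1.37, SE 0.44, adjusted p = 0.0228 by limma), called in 10 of 13 settings. In these 4 genes the lowest values of the series were those of day 2 and the highest those of day 14, with no overlap between day 0 and either.

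The gel-forming mucin gene Muc5ac, a gastric-type mucin often seen in pancreatic precursor lesions, read 0.715, 1.19 and 4.36 TPM at day 0, 6.45, 3.56 and 7.49 at day 2 and 64.4, 33.7 and 9.36 at day 14. Its day 2 values overlapped those of day 0 (log2 fold change 1.28, SE 0.64, adjusted p = 0.116 by limma), and its day 14 replicate 3 stood not far above the highest day 2 library. Prr15l read 1.04, 0.187 and 2.23 TPM at day 0, 1.05, 0.386 and 0.779 at day 2 and 17, 18.2 and 5.99 at day 14. Tspan13, a tetraspanin, read 28.7, 26.6 and 28.1 TPM at day 0, 30.8, 10.8 and 26.1 at day 2 and 124, 78.7 and 46.7 at day 14. Eps8l2, an actin regulator of microvilli, read 49.9, 44.3 and 47.6 TPM at day 0, 58.7, 60.7 and 49.9 at day 2 and 147, 119 and 132 at day 14. Syt8, a synaptotagmin gene, read 44.9, 39.8 and 53.5 TPM at day 0, 48, 43.1 and 56 at day 2 and 113, 93.8 and 93 at day 14. The last 2 were already abundant at day 0 and varied little within a day. Of 29 other tested genes of the apical membrane, mucins and mucosal secretion, 14 rose and 0 fell at day 14 against day 0 by limma. Without adjustment, also 0 fell at p under 0.05. Over all rows 36.2% rose and 18.8% fell. Against day 2, 13 rose and 1 fell (all rows 27.4% and 3.79%). The medians were 0.71 and 1.05 (all rows 0.22 and 0.25). Clca1, a secreted mucus protein, rose from 0.734 to 8.36 TPM between day 0 and day 14 (limma, adjusted p = 0.00281). The epithelial marker sums, carried by keratins, were lower at day 2 than at day 0 as well, and their part in the day 2 falls was not tested.

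Of the transporters and channels, 3 rose at day 2, 1 fell and 5 did not pass, where 27.1% of all tested rows rose and 31.9% fell. Aqp1, a water channel of duct and kidney epithelium, read 134, 113 and 113 TPM at day 0, 104, 50.3 and 75.2 at day 2 and 638, 529.5 and 488 at day 14. It fell at day 2 by 0.70 on the log2 scale (SE 0.23; limma, adjusted p = 0.0257), a call made in 8 of 13 settings, before reaching the second highest day 14 mean of the set, 552 ± 77.5 TPM (SD, n = 3). Serinc2, a membrane protein of the serine incorporator family, read 6.07, 4.74 and 5.59 TPM at day 0, 15.9, 11.4 and 17.9 at day 2 and 33.7, 51.1 and 40.7 at day 14. At day 2 Serinc2 rose (log2 fold change 1.30, SE 0.20, adjusted p = 4.22e-04 by limma). Slc22a18, an organic cation transporter-like gene of an imprinted region, read 3.85, 3.88 and 4.26 TPM at day 0, 8.74, 4.85 and 8.61 at day 2 and 36.1, 27.6 and 19.1 at day 14. At day 2 Slc22a18 rose (log2 fold change 0.71, SE 0.25, adjusted p = 0.0352 by limma), called in 7 of 13 settings. Kcnu1, a potassium channel gene known from sperm, read 4.34, 5.08 and 4.35 TPM at day 0, 5.83, 6.88 and 6.78 at day 2 and 20.5, 15.6 and 18.9 at day 14. At day 2 Kcnu1 rose (log2 fold change 0.42, SE 0.14, adjusted p = 0.0228 by limma), called in 8 of 13 settings. Fxyd3, a regulator of the sodium pump, read 3.55, 3.03 and 8.17 TPM at day 0, 3.38, 2.61 and 4.36 at day 2 and 35.7, 30.4 and 12.9 at day 14. Slc26a2, a sulfate transporter, read 99.2, 103 and 127 TPM at day 0, 167, 93 and 144 at day 2 and 529, 289.9 and 179.9 at day 14, with day 14 replicate 3 close to the highest day 2 library. The chloride channel family gene Clic3, the phospholipid flippase gene Atp9a and the neutral amino acid transporter gene Slc6a15 had day 14 means of 33.7 ± 15, 16 ± 3.43 and 16.7 ± 7.75 TPM and ratios of 2.58, 2.71 and 2.34. Of 55 other tested transporter and channel genes, 23 rose and 5 fell at day 14 against day 0 (all rows 36.2% and 18.8%). Against day 2, 27 rose and 1 fell (all rows 27.4% and 3.79%). The medians were 0.41 and 0.61 (all rows 0.22 and 0.25).

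Among 16 ligands and receptors, 4 rose at day 2 and 1 fell, where 27.1% of all tested rows rose and 31.9% fell. The gene that fell was Ndnf (log2 fold change -0.83, SE 0.15, adjusted p = 0.00121 by limma). Wnt4, a secreted Wnt ligand, read 0.797, 0.735 and 1.08 TPM at day 0, 5.05, 2.37 and 4.87 at day 2 and 15, 13.8 and 5.33 at day 14. At day 2 Wnt4 rose (log2 fold change 1.40, SE 0.36, adjusted p = 0.00788 by limma). Its day 14 replicate 3 was only just above the highest day 2 library. Sema3f, a secreted semaphorin, read 4.39, 3.46 and 3.97 TPM at day 0, 9.98, 9.75 and 10.7 at day 2 and 22.8, 28.4 and 22.3 at day 14. At day 2 Sema3f rose (log2 fold change 1.18, SE 0.13, adjusted p = 7.01e-05 by limma), with small spread at each day. The adhesion receptor gene Adgrg1 read 5.78, 5.53 and 5.76 TPM at day 0, 13.5, 7.95 and 10.4 at day 2 and 28.4, 28.6 and 15.5 at day 14. At day 2 Adgrg1 rose (log2 fold change 0.77, SE 0.25, adjusted p = 0.0228 by limma), called in 8 of 13 settings.

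Ihh, a Hedgehog ligand, and Smo, the membrane protein that passes the Hedgehog signal on, were both in the set. Smo read 5.35, 4.85 and 5.05 TPM at day 0, 6.53, 12.6 and 8.67 at day 2 and 20.8, 24.9 and 20.6 at day 14. At day 2 Smo rose (log2 fold change 0.71, SE 0.20, adjusted p = 0.0121 by limma). Ihh read 7.8, 5.36 and 8.04 TPM at day 0, 3.21, 1.38 and 3.61 at day 2 and 47.4, 20.7 and 9.07 at day 14. At day 2 all Ihh values lay below those of day 0, a difference that did not pass (log2 fold change -1.15, SE 0.50, adjusted p = 0.0722 by limma), and its 3 day 14 libraries spanned more than 5-fold. Other genes of the pathway, looked up after the members were known, had mixed courses. Ptch1, the receptor for Hedgehog ligands and itself a usual target of the pathway, averaged 7.01, 16.1 and 9.58 TPM at day 0, 2 and 14, with a rise to day 2 (adjusted p = 2.08e-04 by limma) and a fall from there to day 14 (adjusted p = 0.00727 by limma). At day 14 Ptch1 was still above day 0 (log2 fold change 0.39, adjusted p = 0.0452 by limma). Dhh, another ligand, averaged 17.7, 9.38 and 10.8 TPM, and the target Gli1 had means of 0.315, 0.465 and 0.301 TPM, below the filter. Highest at day 14 but also below the filter were the ligand Shh (0.105, 0.464 and 1.18 TPM) and Gli3 (0.112, 0.116 and 0.354 TPM). Sufu averaged 17.0, 19.8 and 20.4 TPM and passed in no comparison.

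The remaining ligands and receptors did not pass at day 2. Pdgfd, a platelet-derived growth factor, read 3.25, 4.94 and 6.21 TPM at day 0, 3.86, 2.88 and 3.22 at day 2 and 24.9, 20.8 and 14 at day 14. Vcam1, a cell adhesion molecule, read 22.2, 16 and 19.1 TPM at day 0, 19.7, 12.3 and 11.2 at day 2 and 74.6, 37.4 and 27.6 at day 14. Flrt3, another adhesion protein, read 21.6, 27 and 28.2 TPM at day 0, 36.6, 25.8 and 26.7 at day 2 and 102, 50.5 and 38.1 at day 14. In both, day 14 replicate 1 was the highest by more than 1.5-fold. Adgre5, the adhesion receptor CD97, read 42.1, 47.5 and 50.9 TPM at day 0, 43.3, 36.9 and 45.9 at day 2 and 172, 82.1 and 113 at day 14, with replicate 2 lowest at day 14. The netrin Ntn4, the membrane chemokine Cxcl16, the scavenger receptor Scarf2 and the purine receptor P2ry1 had day 14 means of 23.8 ± 5.9, 61.2 ± 8.54, 60.9 ± 8.21 and 10.1 ± 4.15 TPM. Of 86 other tested receptor genes, 36 rose and 7 fell at day 14 against day 0, with a median of 0.28, and 34 rose and 6 fell against day 2, with a median of 0.37. Of 54 other tested growth factor and ligand genes, 15 rose and 7 fell against day 0 and 12 rose and 7 fell against day 2, with medians of 0.24 and 0.19. Over all rows 36.2% rose and 18.8% fell against day 0, and 27.4% and 3.79% against day 2. The medians over all rows were 0.22 and 0.25.

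Regulators of transcription held the gene of highest level. Nupr1, a small stress-induced chromatin protein, read 69.5, 49 and 43.2 TPM at day 0, 318, 404 and 358 at day 2 and 929.6, 686 and 854 at day 14. It rose at day 2 (log2 fold change 2.74, SE 0.19, adjusted p = 3.67e-06 by limma), the largest day 2 rise among the 104, and at day 14 it stood a further 2.28 times higher by the ratio. Rfx5, a factor of MHC class II promoters, rose (log2 fold change 0.72, SE 0.16, adjusted p = 0.00454 by limma) and read 9.96, 9.99 and 10.2 TPM at day 14, the narrowest day 14 spread of the set. Nr1d1, the clock repressor REV-ERB alpha, read 16.9, 27.1 and 22.8 TPM at day 0, 15.7, 12.5 and 8.9 at day 2 and 50.1, 42.4 and 67.4 at day 14. At day 2 Nr1d1 fell (log2 fold change -0.81, SE 0.25, adjusted p = 0.0184 by limma), called in 10 of 13 settings. Klf4, a zinc finger factor of epithelial differentiation, read 48.8, 53.3 and 59.2 TPM at day 0, 61.1, 48.5 and 55.6 at day 2 and 218, 108 and 90.9 at day 14 and did not pass at day 2. The homeobox gene Hhex read 26.7, 22.8 and 24.6 TPM at day 0, 31, 27.5 and 32.8 at day 2 and 85.8, 84.6 and 58.9 at day 14. Mycn, a proto-oncogene of the MYC family, read 5.45, 4.74 and 5.15 TPM at day 0, 2.29, 1.53 and 4.71 at day 2 and 19.7, 13.9 and 9.52 at day 14. Scmh1, of the Polycomb group, Glis3 and Lin52, a subunit of the MuvB complex, had day 14 means of 16.5 ± 0.712, 25.5 ± 4.1 and 14.7 ± 1.22 TPM (SD, n = 3). Of 73 other tested epithelial transcription factor genes, 34 rose and 6 fell at day 14 against day 0 (all rows 36.2% and 18.8%). Against day 2, 14 rose and 6 fell (all rows 27.4% and 3.79%). The medians were 0.42 and 0.19 (all rows 0.22 and 0.25).

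In the stress and cell cycle group 2 small heat shock genes fell at day 2, where 31.9% of all tested rows fell, and stood highest at day 14. Hspb1 read 117, 93.9 and 66.3 TPM at day 0, 70.4, 32.7 and 43 at day 2 and 242, 188 and 145 at day 14. At day 2 Hspb1 fell (log2 fold change -0.94, SE 0.31, adjusted p = 0.0242 by limma), called in 7 of 13 settings, with overlapping values. Cryab, which codes for alpha B crystallin, read 5.54, 6.82 and 8.94 TPM at day 0, 3.33, 3.95 and 3.1 at day 2 and 21.9, 12.8 and 37.9 at day 14. At day 2 Cryab fell (log2 fold change -0.84, SE 0.33, adjusted p = 0.0496 by limma), called in 4 of 13 settings. Hspb6, a relative outside the set, averaged 26, 29.8 and 57.1 TPM at day 0, 2 and 14. Ccnd2, a D-type cyclin, read 84.4, 78.2 and 85.7 TPM at day 0, 70.9, 119 and 93.2 at day 2 and 221, 310.0 and 276 at day 14. Gadd45b, a stress-inducible growth arrest gene, read 50.3, 54.6 and 61.1 TPM at day 0, 46.8, 70.9 and 42.9 at day 2 and 75.7, 96.2 and 196 at day 14, with replicate 3 more than 2-fold above each of the others at day 14. Rdm1, a RAD52-like gene, read 10.6, 10.5 and 13.1 TPM at day 0, 17.3, 16.5 and 14.1 at day 2 and 37.7, 34.8 and 37.3 at day 14 and rose at day 2 (log2 fold change 0.45, SE 0.12, adjusted p = 0.0114 by limma), called in 12 of 13 settings. Of 41 other tested genes of cell cycle exit, senescence and p53 targets, 19 rose and 8 fell at day 14 against day 0. Over all rows 36.2% rose and 18.8% fell. Against day 2, 14 rose and 6 fell (all rows 27.4% and 3.79%). The medians were 0.37 and 0.25 (all rows 0.22 and 0.25).

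Of 8 intracellular signalling genes, Dusp8, a MAP kinase phosphatase gene that lies near Muc5ac on chromosome 7 with 4 genes between them, read 2.21, 2.3 and 2.43 TPM at day 0, 4.22, 3.79 and 2.83 at day 2 and 11.1, 9.83 and 10.5 at day 14 and was the gene that rose at day 2 (log2 fold change 0.47, SE 0.14, adjusted p = 0.0181 by limma), called in 9 of 13 settings. Rasgrp3, an exchange factor for Ras and Rap, read 5.23, 4.5 and 3.16 TPM at day 0, 10.1, 5.13 and 6.15 at day 2 and 44.2, 22.9 and 16.3 at day 14. Tnfaip3, the ubiquitin-editing enzyme A20 that restrains NF-kappaB signalling, read 24.5, 24.1 and 32.7 TPM at day 0, 20.1, 24.2 and 17.6 at day 2 and 49.5, 53.7 and 66.3 at day 14. Irak2, a kinase of interleukin and Toll-like receptor signalling, read 18.9, 21.1 and 18.2 TPM at day 0, 23, 14.8 and 16.8 at day 2 and 53.8, 34.8 and 32 at day 14. Arhgef19, Psd3 and Grb14 had day 14 means of 12 ± 2.01, 13.6 ± 3.27 and 21.6 ± 5.68 TPM. None of these 6 passed at day 2. Of 23 other tested NF-kappaB response genes, 9 rose and 2 fell at day 14 against day 0 (all rows 36.2% and 18.8%). Against day 2, 5 rose and 1 fell (all rows 27.4% and 3.79%). The medians were 0.49 and 0.30 (all rows 0.22 and 0.25).

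Lipid and small molecule metabolism held 13 genes, of which 3 rose and 1 fell at day 2 (over all tested rows 27.1% rose and 31.9% fell). Phyhd1, a dioxygenase related to phytanoyl-CoA hydroxylase, read 0.894, 1.52 and 1.8 TPM at day 0, 5.33, 4.48 and 4.86 at day 2 and 14.2, 18.4 and 15.6 at day 14. At day 2 Phyhd1 rose (log2 fold change 1.31, SE 0.17, adjusted p = 1.85e-04 by limma). Gal3st1, which makes sulfatide, read 4.0, 4.26 and 2.55 TPM at day 0, 7.09, 6.17 and 9.82 at day 2 and 19.4, 18.7 and 12 at day 14. At day 2 Gal3st1 rose (log2 fold change 0.92, SE 0.24, adjusted p = 0.00841 by limma). Hexa, a lysosomal hexosaminidase subunit, read 15.7, 17.8 and 18 TPM at day 0, 27.8, 25.5 and 23.2 at day 2 and 72.5, 43.4 and 53.2 at day 14. At day 2 Hexa rose (log2 fold change 0.54, SE 0.17, adjusted p = 0.0230 by limma), called in 11 of 13 settings. Pdxk, pyridoxal kinase, read 21.4, 22 and 20.6 TPM at day 0, 12.2, 10.02 and 11.8 at day 2 and 55.7, 54.7 and 43.4 at day 14. At day 2 Pdxk fell (log2 fold change -0.86, SE 0.13, adjusted p = 3.68e-04 by limma). Chpt1, which completes phosphatidylcholine synthesis, read 11.3, 13.4 and 13.1 TPM at day 0, 12.2, 14.5 and 16.5 at day 2 and 51.2, 56.1 and 48.8 at day 14, with a narrow spread at each day. St3gal5, the GM3 synthase, read 23.3, 24.6 and 22.8 TPM at day 0, 25.4, 15.5 and 19.7 at day 2 and 98.3, 64.5 and 46 at day 14. Apoe, the lipoprotein component, read 3.04, 3.28 and 3.49 TPM at day 0, 4.65, 3.09 and 4.21 at day 2 and 15.9, 11.1 and 6.94 at day 14. The genes of aspartoacylase (Aspa), a lipid phosphate phosphatase (Plpp3), a sphingolipid desaturase (Degs2), fatty acid amide hydrolase (Faah), galactose mutarotase (Galm) and a sterol carrier (Stard5) had ratios between 2.04 (Stard5) and 3.01 (Aspa), and none of them passed at day 2 by limma, adjusted or, at p under 0.05, unadjusted. Of 85 other tested genes of lipid and sterol metabolism, 26 rose and 15 fell at day 14 against day 0 (all rows 36.2% and 18.8%). Against day 2, 17 rose and 6 fell (all rows 27.4% and 3.79%). The medians of 0.15 and 0.18 lay below those over all rows (0.22 and 0.25). Of 50 other tested lysosome and autophagy genes, 31 rose and 4 fell at day 14 against day 0 (all rows 36.2% and 18.8%). Against day 2, 12 rose and 1 fell (all rows 27.4% and 3.79%). The medians were 0.52 and 0.22 (all rows 0.22 and 0.25).

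Among 8 cytoskeletal genes, 2 rose and 2 fell at day 2, where 27.1% of all tested rows rose and 31.9% fell. Ckb, brain-type creatine kinase, which was grouped here for its place on a list of contractile and actin-binding proteins, read 20.9, 24.3 and 18.9 TPM at day 0, 6.33, 4.08 and 3.74 at day 2 and 59.5, 44.9 and 70.7 at day 14. It fell at day 2 (log2 fold change -1.99, SE 0.21, adjusted p = 4.99e-05 by limma), and its 3 day 14 values were more than 7 times any day 2 value. Pdlim4, an actin-associated PDZ and LIM protein, read 1.79, 2.82 and 5.3 TPM at day 0, 11.7, 9.11 and 10.2 at day 2 and 56.5, 23.6 and 13.8 at day 14. At day 2 Pdlim4 rose (log2 fold change 1.47, SE 0.45, adjusted p = 0.0195 by limma), called in 9 of 13 settings, with replicate 1 far above replicate 3 at day 14. Nes, the intermediate filament nestin, read 2.77, 3.9 and 4.12 TPM at day 0, 2.4, 2.04 and 1.81 at day 2 and 8.27, 10.8 and 11 at day 14. At day 2 Nes fell (log2 fold change -0.57, SE 0.17, adjusted p = 0.0166 by limma), called in 10 of 13 settings. Fscn1, the actin bundler fascin, read 3.0, 2.64 and 3.11 TPM at day 0, 4.34, 7.26 and 3.12 at day 2 and 14.1, 14.2 and 27.7 at day 14, with replicate 3 the highest at day 14. The cilium gene Cfap69 rose at day 2 (log2 fold change 0.89, SE 0.20, adjusted p = 0.00447 by limma), while Tppp3 and Tubb4a of the microtubules and Filip1l did not pass. Of 46 other tested contractile and actin-binding genes, 11 rose and 14 fell at day 14 against day 0 (all rows 36.2% and 18.8%). Against day 2, 22 rose and 1 fell (all rows 27.4% and 3.79%). The medians were 0.03 and 0.59 (all rows 0.22 and 0.25).

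The 7 genes of proteases, inhibitors and other secreted proteins include Ctsh, a lysosomal cathepsin, which read 46.1, 40.6 and 45.6 TPM at day 0, 37.5, 20.9 and 32.3 at day 2 and 186, 143 and 80.02 at day 14. Glipr1, a CAP family protein gene, read 44.8, 54.4 and 59.2 TPM at day 0, 32, 57.8 and 34.7 at day 2 and 124, 184 and 163 at day 14. Cfi, a protease that inactivates complement, read 3.18, 3.15 and 4.03 TPM at day 0, 9.33, 4.94 and 7.55 at day 2 and 37.7, 19.2 and 9.89 at day 14. Serpini1, the inhibitor neuroserpin, read 2.9, 4.41 and 3.39 TPM at day 0, 7.31, 10.2 and 8.46 at day 2 and 20.2, 20.01 and 15.5 at day 14 and was the gene of this group that rose at day 2 (log2 fold change 1.08, SE 0.18, adjusted p = 6.40e-04 by limma). Spaca7, a gene of the sperm acrosome, read 2.05, 1.98 and 3.39 TPM at day 0, 0.149, 2.47 and 1.27 at day 2 and 7.01, 6.18 and 17.3 at day 14. Adamtsl4, a matrix glycoprotein gene, had a day 14 mean of 13.2 ± 1.22 TPM. Tapbp, in the last group, read 23.6, 23 and 18.6 TPM at day 0, 34.2, 17.9 and 29.3 at day 2 and 67, 62.1 and 47.5 at day 14. Tmie rose at day 2 (log2 fold change 0.95, SE 0.16, adjusted p = 9.31e-04 by limma). Klra4 had means of 7.09 ± 1.4, 6.18 ± 2.98 and 16.6 ± 3.39 TPM. Of 31 other tested interferon and antigen presentation genes, 22 rose and 3 fell at day 14 against day 0 (all rows 36.2% and 18.8%). Against day 2, 17 rose and 0 fell (1 at an unadjusted p under 0.05) by limma. Over all rows these shares were 27.4% and 3.79%. The medians were 0.65 and 0.49 (all rows 0.22 and 0.25).

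At the threshold, the genes just inside were Rfx5, Irak2, Syt8, Adamtsl4 and Serpini1, with ratios from 2.01 to 2.02. Just outside were Ptp4a1 (ratio 1.995), Tgfb3 (1.98), Adh7 (1.97), Pde3b (1.97) and Rasgef1b (1.97), so the limit of 2 does not mark a gap in the values.

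The 3 day 14 libraries were not equal for these genes. Replicate 1 was the highest of the day for 68 genes, replicate 2 for 22 and replicate 3 for 14, whereas among 8625 tested rows with a day 14 mean of at least 10 TPM the shares were 38.2%, 21.7% and 40.1%. Relative to the day 14 mean of the gene, the median was 1.20 in replicate 1, 0.977 in replicate 2 and 0.802 in replicate 3. The order replicate 1 above 2 above 3 was found in 55 genes (52.9%, against 18.9% of those rows). The median SD of log2(TPM + 1) at day 14 was 0.42 for these genes and 0.17 for those rows, and 44 genes differed by at least 2-fold between their highest and lowest day 14 library while 13 differed by under 1.25-fold. The rule used these same values, so the shares are a description.

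**Figure D4:**
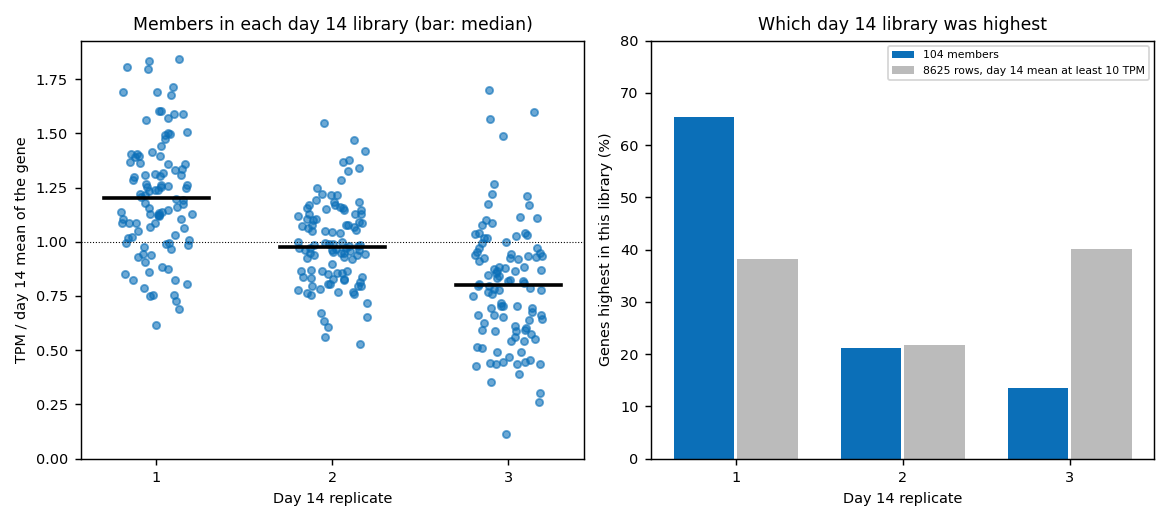
Left, TPM of each of the 104 genes in a day 14 library divided by its day 14 mean, with a bar at the median (1.20, 0.977 and 0.802 for replicates 1, 2 and 3). Right, percentage of genes whose highest day 14 value was in each replicate, for the 104 genes (blue) and for 8625 rows with a day 14 mean of at least 10 TPM (grey).

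By role, replicate 1 was highest for 9 of 13 lipid and small molecule genes, 11 of 16 ligands and receptors and 7 of 10 detoxification genes, 4 of 8 cytoskeletal and 2 of 5 stress and cell cycle genes. It was also highest for 7 of 9 transporters, 6 of 8 signalling genes and 5 of 7 protease and secreted protein genes. For epithelial surface and for transcription genes it was 6 of 10 each, for retinoid and thyroid genes 3 of 5 and in the last group 2 of 3. The median of highest over lowest day 14 value was 2.36 in the detoxification, 2.32 in the protease and secreted protein and 2.27 in the epithelial surface group. It was 1.41 in the transcription group and in the last group. The other roles lay between 1.583 (intracellular signalling) and 2.015 (retinoid and thyroid). Differences between the roles were not tested. At day 2, replicate 2 was the lowest of the day for 65 of the 104 genes (62.5%, against 19.3% of the 8625 rows), and for 52 of the 68 genes that were highest in day 14 replicate 1. Beside this, the summed epithelial markers at day 2 were 7621, 5497 and 6566 TPM in replicates 1, 2 and 3. At day 14 they were 8673, 6889.7 and 7113 TPM in the same order. Replicate 3 was the lowest day 14 library for 71 of the 104 genes (68.3%, against 26.7% of the 8625 rows). Its marker sum, however, was above that of replicate 2. The part of this marker level in the day 14 values was not tested.

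Each day 14 library was then set against a choice of genes made without it. The rule applied to the 8 libraries other than day 14 replicate 1 chose 90 genes, 72 of them among the 104. Of the 90, 82 (91.1%) lay above all 6 earlier values in the unused replicate 1, and 67 (74.4%) met the ratio of 2 there. Without replicate 2 it chose 115 genes, of which 110 (95.7%) lay above all earlier values in replicate 2 and 73 (63.5%) met the ratio. Without replicate 3 it chose 175 genes, of which 135 (77.1%) lay above in replicate 3 and 52 (29.7%) met the ratio. Among rows the rule did not choose, with the same limit on level, 27.4%, 21.9% and 25.5% lay above all earlier values in replicates 1, 2 and 3. These rows are compared with the same 6 earlier libraries that served in the choice. Low earlier values favour both the choice and a high share in the left-out library, and the chosen rows are missing from the comparison rows. The shares are therefore a description and do not test the set. Both shares of chosen genes were lowest in replicate 3. With all libraries, 24 of the 104 genes had a lowest day 14 value at least 2 times their highest earlier value, and 21 had one under 1.25 times it.

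The set also depended on how libraries were scaled to each other. In the deposited TPM the median log2 difference of all tested rows was 0.22 from day 0 to day 14 and 0.25 from day 2 to day 14. After median-of-ratios scaling it was -0.05 and -0.01. The rule then chose 45 genes, all 45 among the 104, and after quantile normalization 50 genes, 49 of them among the 104. In all, 42 of the 104 met the rule in each of the 4 other scalings, 57 met it whichever library was left out, and 39 did both. The median log2 fold change of the 104 at day 14 against day 0 was 1.57 in the deposited TPM and 1.30 after median-of-ratios scaling. Against day 2 it was 1.48 and 1.22. The rule chose the genes for high day 14 values, so the sign of these medians is no result.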

How the data were processed

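RNA was sequenced from 9 samples of the mouse line 6620c1, 3 per day. Per the submitters' processing notes transcripts were quantified with Salmon, and the deposited values are gene TPM, each column summing to 1e+06. Which Salmon version, index, build and annotation were used is not given in the sources used here, and library depth is unknown, so no counting intervals are given. TPM were changed to log2(TPM + 1), and 12693 of 24493 rows (1 TPM or more in 3 or more samples) were fitted with limma 3.58.1 in R 4.3.3 (a mean per day over all 9 samples, moderated variances with a trend, two-sided p adjusted by Benjamini and Hochberg over all tested rows, threshold 0.05). Fold changes on this scale understate the change of low genes. The fit was tried on simulated data with normal noise of equal spread at each day, and the rule on made rows without noise. These are checks of the code and say nothing of the measured values. The members and gene lists were chosen with earlier results of these data known, so counts over a list are descriptions.

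Genes were named by a rule: among members, the 25 with the largest ratio, the 15 with the highest day 14 mean, the 10 greatest rises and 10 greatest falls at day 2 that passed without overlap, up to 6 members per list, the 5 genes on either side of the ratio of 2, and the 5 with the widest and narrowest day 14 spread. Of the 104, 2 are counted but not reported here by name or drawn by name. Other members, relatives of members and the sequences shown were chosen after their values were seen. All 104 members were found in RefSeq, which gave the sequences and gene order. Alternatives were pseudocounts of 0.1 and 5, other filters, 4 other scalings, fits with robust variances, without a trend, restricted to the groups compared, or blocked on replicate number, each library left out in turn, and other limits of the rule. Plots used matplotlib 3.10.9 under Python 3.11.15.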

Additional observations from a re-analysis of the deposited data

How the results depend on the processing

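At day 2 against day 0 the 23 rises among the 104 genes stayed within 1.5 times under every alternative run, with 17 to 26 when a library was left out. The 14 falls became 7 with no filter and 9 after removal of the 20 most abundant rows, and ranged from 7 to 19 with a library left out. No named gene changed direction with a call. The replicate block gave 25 rises and 15 falls. The numbers are not stated to pair the samples: same-numbered samples correlated at r from -0.0709 to 0.318 once day means were removed, 1 of 9 pairs lay over 0.1, and 4 of 9 samples correlated best with their own number.

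The number of genes under the rule, 104, was 157 with a day 14 mean of at least 5 TPM, 64 with at least 20 TPM, 63 with 5 added to the means, 345 with a ratio of 1.5, 28 with a ratio of 3, 50 after quantile normalization and 45 after median-of-ratios scaling, and 90 to 175 with a library left out (175 without day 14 replicate 3). Over all rows, the 4601 rises at day 14 against day 0 became 2843 after quantile normalization, and the 2389 falls 4027 after median-of-ratios scaling. At day 14 against day 2 the 3474 rises became 1572 after median-of-ratios scaling and 1470 after quantile normalization. The 481 falls became 1485 and 1905 under these scalings, 818 after removal of the 20 most abundant rows, 722 after removal of small RNA rows and 291 with only the groups compared. The cause was not tested, except that fewer samples enter the last fit and any fit with a library left out. TPM carry no depth, so what depth limits cannot be given.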
